A study of Rattus norvegicus with 15 samples.

Results

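The transcripts described here encode Pnpla3 and the enzymes and cofactors that break down stored fat inside cells: Pnpla2, Lipe, Mgll, Abhd5, G0s2 and Lipa. Every probe set of the array whose current or former platform symbol is 1 of these 7 was taken, which gave 14 of 31099 probe sets. All 7 genes were among the 9540 genes tested, and 13 of the 14 probe sets passed the filter on dim values. The samples were livers of male Sprague Dawley rats, aged 7 weeks at the start, on a diet in which fat supplied 59% of the energy. Over 6 weeks of daily gavage they received PF-04923503 at 10 mg/kg, PF-04923503 at 30 mg/kg, or the vehicle, 0.5% methylcellulose, with 5 samples in each group and 1 array per sample. The labels call PF-04923503 an ACC inhibitor; ACC (acetyl-CoA carboxylase) carries out the committed step of fatty acid synthesis. All 3 groups ate the high fat diet, so no sample shows these genes on ordinary chow, and the labels do not say whether replicate samples came from separate rats.

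Triglyceride in a liver cell lies in lipid droplets. Pnpla2, also called adipose triglyceride lipase, takes off the leading fatty acid once its coactivator Abhd5 is bound, and G0s2 inhibits it. Lipe, the hormone-sensitive lipase, works mainly on diacylglycerol, and Mgll, the monoacylglycerol lipase, releases the last fatty acid. Lipa, the lysosomal acid lipase, digests droplets and lipoproteins delivered to lysosomes. Pnpla3 is a close relative of Pnpla2 that sits on droplets. Its transcription in liver is driven by the lipogenic factors SREBP-1c and ChREBP and is high after feeding, and a coding variant of the human gene is a well known inherited contributor to fatty liver.

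Upstream sequence was available in RefSeq (build GRCr8) for 6 of the 7 genes, all but Lipe. The stretches before the start of Pnpla3 (chr7:117173278-117173484, plus strand), its relative Pnpla2 (chr1:205982029-205982278, plus strand) and Mgll (chr4:122749186-122749435, plus strand) are shown because Pnpla3 differed most between the groups and Pnpla2 little, while Mgll was the member that followed Pnpla3 most closely from sample to sample. Capitals mark the CCAAT box, which reads ATTGG on the opposite strand. The E-box CACGTG and the cyclic AMP response element (CRE) TGACGTCA are capitalised too.
Pnpla3: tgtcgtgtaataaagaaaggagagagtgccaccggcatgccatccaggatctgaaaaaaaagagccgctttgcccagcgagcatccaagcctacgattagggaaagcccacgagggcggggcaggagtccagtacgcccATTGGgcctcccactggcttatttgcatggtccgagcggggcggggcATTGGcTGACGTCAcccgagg
Pnpla2: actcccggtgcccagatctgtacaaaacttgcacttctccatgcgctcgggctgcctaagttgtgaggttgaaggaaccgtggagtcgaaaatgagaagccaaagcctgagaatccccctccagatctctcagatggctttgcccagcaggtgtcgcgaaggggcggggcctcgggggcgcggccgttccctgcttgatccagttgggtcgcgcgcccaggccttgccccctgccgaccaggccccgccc
Mgll: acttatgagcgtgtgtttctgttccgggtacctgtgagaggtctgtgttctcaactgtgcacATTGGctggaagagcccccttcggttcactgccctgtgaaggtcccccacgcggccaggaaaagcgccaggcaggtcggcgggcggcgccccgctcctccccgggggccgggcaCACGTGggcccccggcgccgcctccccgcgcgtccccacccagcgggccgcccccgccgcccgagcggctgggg
The search covered both strands of the 250 bases before the start of transcription, of which 207 are shown for Pnpla3. CCAAT, the box bound by NF-Y, was present in 34% of 33469 rat promoter windows of that length. It occurred 2 times in Pnpla3, 1 time each in Mgll and Lipa, and not in the windows of Pnpla2, Abhd5 and G0s2. The CRE letters TGACGTCA, found in 1.59% of windows, occurred in Pnpla3 alone among the 6. The E-box letters CACGTG, found in 5.59% of windows, occurred in Mgll alone among the 6. TCACNCCAC, a form of the sterol regulatory element found in 0.974% of windows, occurred in none of the 6. GGGCGG, the GC box, which is not set in capitals, was present in 30.5% of windows and in all of the 6 except Lipa. None of these motifs overlapped another in the stretches shown. A match is a run of letters and not a measured binding site.

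Pnpla3 differed most. Its brightest probe set, 1391544_at, read log2 values of 5.92, 7.00, 7.27, 5.78 and 9.78 in vehicle samples 1 to 5. At 10 mg/kg the 5 samples read 11.45, 11.41, 11.10, 12.24 and 11.39, and at 30 mg/kg they read 9.63, 12.29, 11.87, 8.14 and 7.82. All 5 samples at 10 mg/kg lay above all 5 vehicle samples. At 30 mg/kg the samples were far apart, with samples 2 and 3 at the height of the 10 mg/kg samples, sample 1 just below the highest vehicle sample, and samples 4 and 5 between that sample and the other 4 of vehicle. Vehicle samples 1 and 4 lay below the median of all values on the arrays, 6.10, where a change is hard to size. The plot of the 7 genes by sample shows this spread beside the narrower ranges of the other members, of which G0s2 had the widest.

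**Figure D1:**
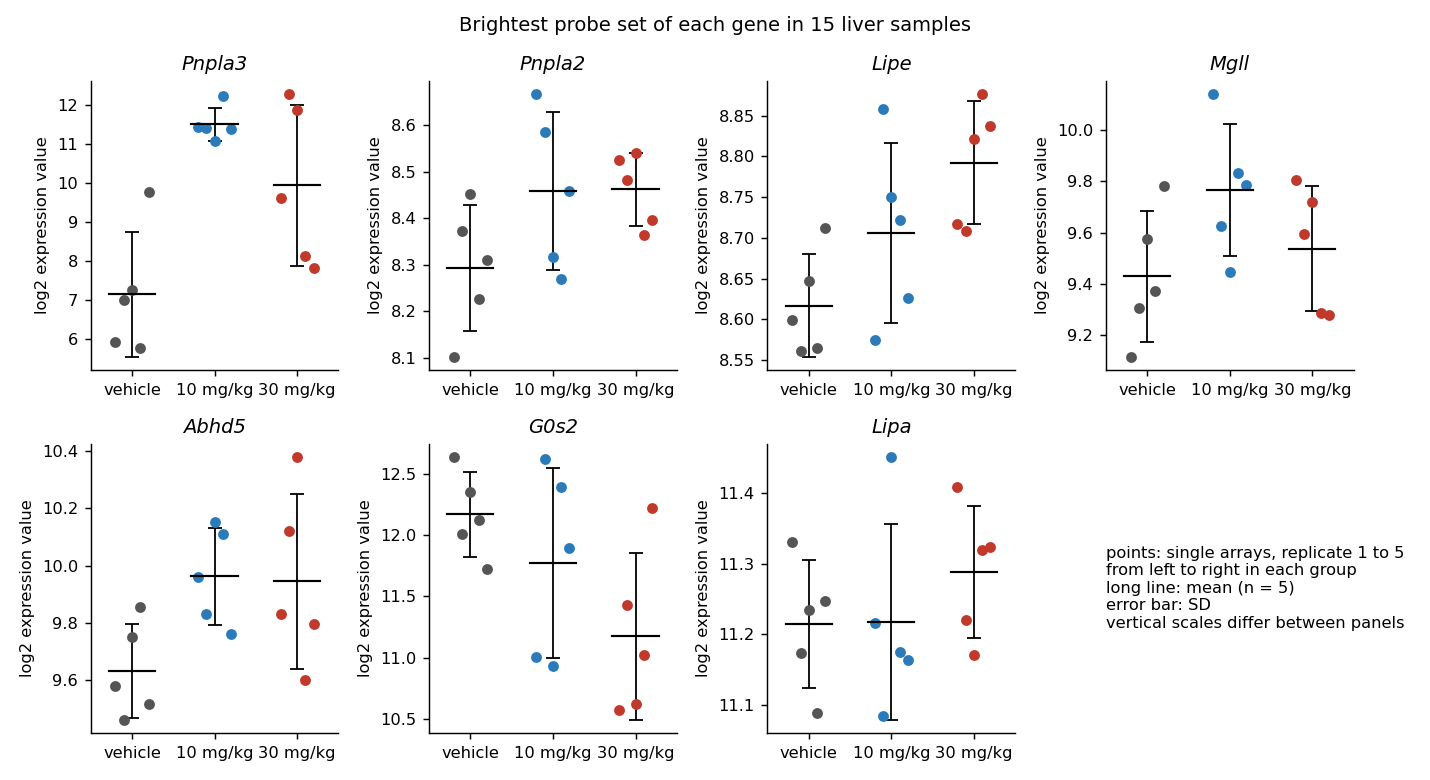
Log2 expression value (vertical axis, arbitrary array units) of the brightest probe set of each of the 7 genes in vehicle, 10 mg/kg and 30 mg/kg samples. Points are single arrays, lines are means and bars are SD (n = 5). Pnpla3 runs from 5.78 to 12.29, whereas Lipe stays between 8.56 and 8.88, and each panel has its own scale.

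The mean of Pnpla3 was 7.15 ± 1.61 in vehicle, 11.52 ± 0.43 at 10 mg/kg and 9.95 ± 2.07 at 30 mg/kg (SD, n = 5 each). The difference of 4.37 at 10 mg/kg was the largest of the 9540 genes in absolute log2 terms, a level 20.6-fold that of vehicle with a 95% confidence interval of 5.69 to 74.6. It did not pass the threshold over all genes (limma, Benjamini-Hochberg adjusted p = 0.0740). The exact two-sided permutation test of the group means gave p = 0.00794, the smallest that 5 samples against 5 allow, and an adjusted p of 0.325 over all genes. At 30 mg/kg the level was 6.95-fold that of vehicle (interval 1.92 to 25.2; limma adjusted p = 0.174; exact permutation p = 0.0476, adjusted 0.337), and the difference ranked 3 of 9540 in size. With both doses averaged, Pnpla3 stood at 11.97-fold the vehicle level (interval 3.93 to 36.5; limma adjusted p = 0.0657). Differences of this size were not particular to Pnpla3. The gene Scd, named after its values were seen, had log2 differences of 4.28 at 10 mg/kg and 3.86 at 30 mg/kg (limma adjusted p = 0.0696 and 0.0979). At 30 mg/kg that was larger than in Pnpla3. Both doses were set against the same vehicle samples, so the Pnpla3 differences are not independent of each other. Vehicle sample 5, at 9.78, moved them most: without it the level was 32.5-fold at 10 mg/kg (limma adjusted p = 0.0235), 10.97-fold at 30 mg/kg (0.0836) and 18.9-fold for both doses (0.0247). The threshold was also passed at 10 mg/kg without 30 mg/kg sample 2 (limma adjusted p = 0.0480) and for both doses without 30 mg/kg sample 5 (0.0322). The mean of the 3 probe sets in place of the brightest gave 12.2-fold at 10 mg/kg.

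The other probe sets of Pnpla3 ordered the samples in nearly the same way. Probe set 1380013_at read 5.85, 7.32, 7.11, 5.74 and 9.64 in vehicle, 11.05, 10.95, 10.65, 11.74 and 10.92 at 10 mg/kg, and 9.35, 11.70, 11.71, 8.11 and 7.78 at 30 mg/kg. The dimmer probe set 1380643_at read 5.21, 5.68, 5.48, 5.11 and 6.57, then 7.83, 8.67, 7.84, 8.88 and 7.59, then 6.73, 8.71, 8.97, 6.45 and 5.36 in the same order. On each of them vehicle sample 5 was the highest of vehicle, all 10 mg/kg samples lay above it, and 30 mg/kg samples 2 and 3 stood far above 30 mg/kg samples 1, 4 and 5. Log2 differences at 10 mg/kg were 3.93 and 2.55 on these probe sets against 4.37 on the brightest, and at 30 mg/kg they were 2.60 and 1.63 against 2.80. The size of the difference therefore depended on the probe set, and its direction did not. On 1380643_at vehicle samples 1 to 4 and 30 mg/kg sample 5 lay below 6.10, the median of all values, where a change is hard to size. There 30 mg/kg sample 5, at 5.36, was below vehicle samples 2 and 3.

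**Figure D2:**
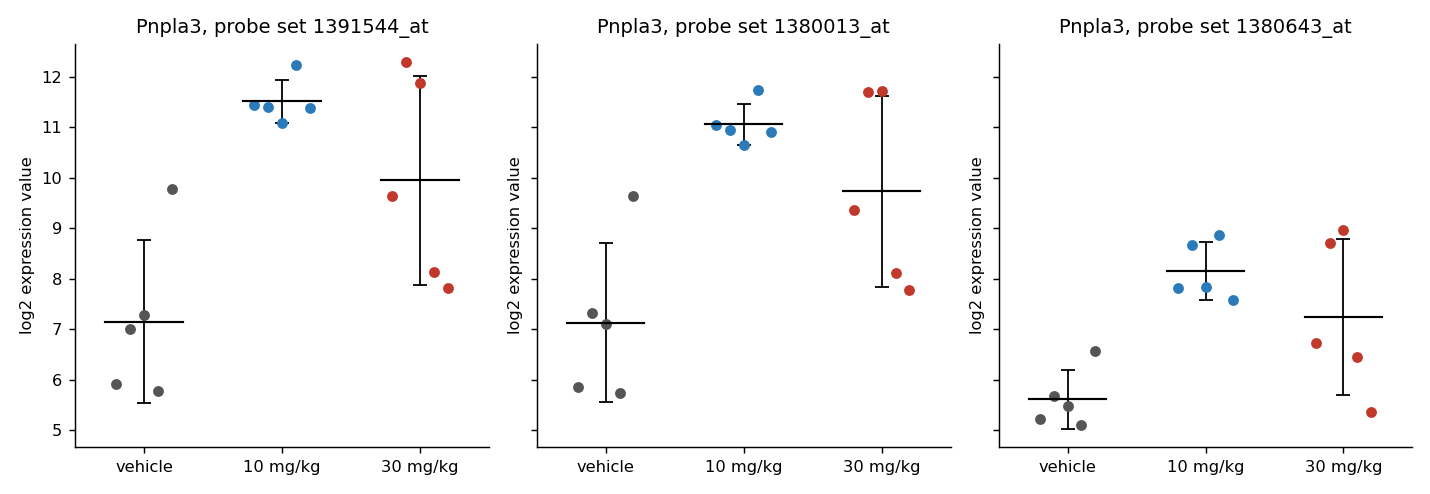
Log2 expression value (vertical axis) of the 3 Pnpla3 probe sets in each sample of the 3 groups. Points are single arrays, lines are means and bars are SD (n = 5). On every probe set the 10 mg/kg samples lie above all vehicle samples, and 30 mg/kg samples divide into a high pair and 3 lower ones.

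The lipase Pnpla2 and its regulators moved much less. Pnpla2 read 8.10, 8.37, 8.45, 8.23 and 8.31 in vehicle, 8.67, 8.59, 8.32, 8.27 and 8.46 at 10 mg/kg and 8.53, 8.48, 8.54, 8.37 and 8.40 at 30 mg/kg. The groups overlapped at both doses, although 3 samples of each dose lay above the highest vehicle sample. Its level was 1.12-fold that of vehicle at 10 mg/kg (95% confidence interval 0.995 to 1.27; limma adjusted p = 0.396) and 1.12-fold at 30 mg/kg (0.997 to 1.27; adjusted p = 0.323). Each interval thus ended at 1.27-fold, below the lower bounds of Pnpla3 given above for the same comparisons.

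Abhd5, the coactivator of Pnpla2, was higher in mean at both doses. Its brightest probe set, 1380665_at, read 9.58, 9.46, 9.75, 9.85 and 9.52 in vehicle, 9.96, 9.83, 10.15, 10.11 and 9.76 at 10 mg/kg and 9.83, 10.12, 10.38, 9.60 and 9.80 at 30 mg/kg. The groups overlapped, with 3 samples at 10 mg/kg and 2 at 30 mg/kg above every vehicle sample. The level was 1.26-fold that of vehicle at 10 mg/kg (interval 1.04 to 1.52; limma adjusted p = 0.309) and 1.24-fold at 30 mg/kg (1.02 to 1.51; adjusted p = 0.258). The second Abhd5 probe set, 1379854_at, gave log2 differences of 0.41 and 0.39 against 0.33 and 0.31.

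G0s2, the inhibitor of Pnpla2, was the only member with a lower mean at both doses on its brightest probe set. It read 12.64, 12.01, 12.35, 12.12 and 11.72 in vehicle, 11.01, 12.62, 10.93, 12.39 and 11.90 at 10 mg/kg and 10.57, 11.43, 10.63, 11.02 and 12.22 at 30 mg/kg. At 10 mg/kg samples 1 and 3 lay far below vehicle while samples 2, 4 and 5 lay within its range. At 30 mg/kg all but sample 5 lay below every vehicle sample. Vehicle was 1.32-fold higher than 10 mg/kg (interval 0.776 to 2.23; limma adjusted p = 0.665) and 1.99-fold higher than 30 mg/kg (1.17 to 3.38; adjusted p = 0.216). Its SD was 0.34 in vehicle, 0.78 at 10 mg/kg and 0.68 at 30 mg/kg, so treated samples were more uneven than vehicle samples in this gene; the difference in spread was not tested.

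Of the remaining hydrolases, Lipe had 2 probe sets that pointed opposite ways. The brighter, 1382465_at, read 8.60, 8.56, 8.65, 8.57 and 8.71 in vehicle, 8.57, 8.86, 8.75, 8.72 and 8.63 at 10 mg/kg and 8.72, 8.71, 8.82, 8.88 and 8.84 at 30 mg/kg. At 30 mg/kg 4 of 5 samples were above all of vehicle and the level was 1.13-fold (interval 1.04 to 1.23; limma adjusted p = 0.193), against 1.06-fold at 10 mg/kg (0.977 to 1.16; adjusted p = 0.530). The dimmer probe set, 1387132_at, gave log2 differences of -0.12 at 10 mg/kg and -0.05 at 30 mg/kg, so no direction holds for both Lipe probe sets.

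Mgll had 4 probe sets, of which 1375355_at, with values from 5.48 to 5.99, did not pass the filter. The brightest, 1370831_at, read 9.12, 9.31, 9.58, 9.37 and 9.78 in vehicle, 10.14, 9.63, 9.45, 9.83 and 9.79 at 10 mg/kg and 9.81, 9.60, 9.72, 9.29 and 9.28 at 30 mg/kg. The groups overlapped at both doses. Its level was 1.26-fold that of vehicle at 10 mg/kg (interval 1.02 to 1.57; limma adjusted p = 0.344) and 1.08-fold at 30 mg/kg (0.868 to 1.34; adjusted p = 0.757). The other filtered probe sets gave log2 differences of 0.34 and 0.32 at 10 mg/kg, close to 0.33 on the brightest, and 0.20 and 0.25 at 30 mg/kg against 0.11.

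Lipa was the steadiest member in mean. It read 11.33, 11.17, 11.23, 11.09 and 11.25 in vehicle, 11.22, 11.08, 11.45, 11.17 and 11.16 at 10 mg/kg and 11.41, 11.22, 11.17, 11.32 and 11.32 at 30 mg/kg. The groups overlapped throughout. The level was 1.00-fold that of vehicle at 10 mg/kg (interval 0.904 to 1.11; limma adjusted p = 0.991) and 1.05-fold at 30 mg/kg (0.950 to 1.17; adjusted p = 0.623). Lysosomal acid lipase is abundant in macrophages. Over all 9540 genes, 5554 were lower in mean at 10 mg/kg and 5917 at 30 mg/kg. Among 12 measured Kupffer cell and macrophage markers, 11 were lower in mean at each dose. The log2 of their summed level ran from 12.96 to 13.54 in vehicle, 12.65 to 13.20 at 10 mg/kg and 12.64 to 13.46 at 30 mg/kg, 0 of the 12 lay below the median of all values on every array, and their part in the Lipa values was not tested. In whole tissue, fewer cells of a type and less RNA per cell cannot be told apart.

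**Figure D3:**
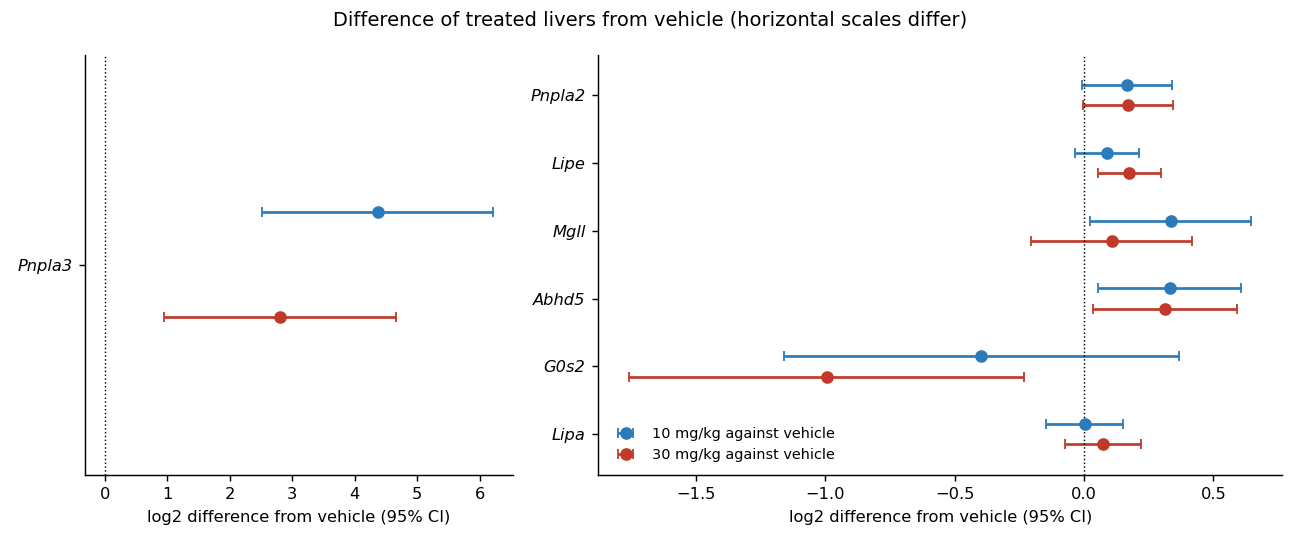
Log2 difference in mean from vehicle (horizontal axis) of each gene at 10 mg/kg and 30 mg/kg, with 95% confidence intervals from limma (n = 5 per group). Pnpla3, on its own scale, lies at 4.37 and 2.80, and the other genes lie between -0.99 and 0.33.

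Counted together, 0 of the 7 genes passed the limma threshold in any of the 4 comparisons, where 0.105% of all 9540 genes passed at 10 mg/kg, 0% at 30 mg/kg, 0% between the doses and 0.147% for both doses averaged. Before adjustment, limma gave p under 0.05 to 3 of the 7 at 10 mg/kg, all higher (Pnpla3, Abhd5 and Mgll), where 4.49% of all genes were higher and 8.79% lower by this rule. At 30 mg/kg it gave 3 higher (Pnpla3, Lipe and Abhd5) and 1 lower (G0s2), where 5.27% of all genes were higher and 10.8% lower. For both doses averaged 4 were higher (Pnpla3, Pnpla2, Lipe and Abhd5) and 1 lower (G0s2), where 5.3% of all genes were higher and 12.4% lower. With 7 genes, 1 gene is a larger share than any of these, so the counts say little beyond the members' own values. The groups did not overlap in 1 of 7 genes at 10 mg/kg, Pnpla3, against 2.44% of all genes, and in 0 at 30 mg/kg, against 3.21%. The median log2 difference of the 7 was 0.17 at each dose, beside -0.02 and -0.03 over all genes.

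Between the doses no member was called and 0 of 7 had an unadjusted p under 0.05, against 5.82% of all genes (limma). The mean of Pnpla3 was lower at 30 mg/kg than at 10 mg/kg by 1.57 on the log2 scale, so that 10 mg/kg was 2.96-fold higher with an interval of 0.819 to 10.7 (limma adjusted p = 0.851; exact permutation p = 0.159). In size this ranked 2 of 9540. Its 3 lowest values at 30 mg/kg lay below all 5 values at 10 mg/kg, and sample 2 at 30 mg/kg lay above them. In mean level Pnpla3 ran from vehicle through 30 mg/kg to 10 mg/kg, and G0s2 from vehicle through 10 mg/kg down to 30 mg/kg. The 95% confidence interval held 0 between the doses in both genes and between vehicle and 10 mg/kg in G0s2, but not between vehicle and 30 mg/kg in Pnpla3 (0.94 to 4.65 on the log2 scale), a difference that limma did not call.

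From sample to sample, Pnpla3 varied more than almost any gene. Its SD within a group exceeded that of 99.8% of the 9540 genes in vehicle, 97.3% at 10 mg/kg and 99.96% at 30 mg/kg, and G0s2 exceeded 94.0% in vehicle, 99.4% at 10 mg/kg and 99.0% at 30 mg/kg. Likeness was measured as the Pearson correlation of deviations from the group means over the 15 arrays, a description in which all genes share the same arrays and their normalisation. The 5 genes closest to Pnpla3 were Fasn, the fatty acid synthase (r = 0.95, Spearman's rho = 0.94), Pgd, an NADPH-producing enzyme of the pentose phosphate pathway (0.93 and 0.96), Acly, which makes cytosolic acetyl-CoA (0.92 and 0.88), Dixdc1 (0.92 and 0.84) and Elovl6, a fatty acid elongase (0.91 and 0.87). Without vehicle sample 5 and 30 mg/kg sample 2, the arrays that deviate most in Pnpla3, r lay between 0.85 for Acly and 0.90 for Elovl6. Vehicle sample 5 had the highest Fasn of vehicle, 11.64 against 9.60 to 10.77, and 30 mg/kg sample 2 the highest of all, 13.11. All of these 5 genes were higher in mean at both doses, and none was called (limma). Log2 differences at 10 and 30 mg/kg were 1.51 and 1.29 for Fasn and 1.15 and 0.91 for Acly. Scd gave r = 0.89 with Pnpla3, and 0.79 without the same 2 arrays. It was called for both doses averaged (limma adjusted p = 0.0361). Of the transcription factors, Srebf1, which encodes SREBP-1, gave r = 0.77 (rho = 0.64) and Mlxipl, which encodes ChREBP, r = 0.47 (rho = 0.40). Without the same 2 arrays r was 0.47 for Srebf1 and 0.49 for Mlxipl. The mean of Srebf1 was 11.50 ± 0.45 in vehicle, 11.81 ± 0.18 at 10 mg/kg and 11.52 ± 0.34 at 30 mg/kg (SD, n = 5 each). In Srebf1 all 3 groups overlapped. In Pnpla3 the 10 mg/kg samples did not overlap vehicle, while the 30 mg/kg samples overlapped both other groups. These are transcript levels, and SREBP-1 protein was not measured. The part of SREBP-1 in the Pnpla3 values was not tested.

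The genes closest to G0s2 were Angptl8, a feeding-induced inhibitor of lipoprotein lipase activity (r = 0.91, rho = 0.93, and r = 0.88 without the 2 arrays farthest out), and Epha2, an ephrin receptor (0.88, 0.84 and 0.76). Angptl8 read 9.17, 10.49, 8.95, 10.91 and 9.55 at 10 mg/kg, low in the same samples 1 and 3 in which G0s2 was low. For Abhd5 they were Gorasp2, a Golgi stacking protein (r = 0.91), and Prkaa2, a catalytic subunit of AMP-activated kinase (0.86). Without the 2 arrays farthest out in Abhd5, r was 0.87 for Gorasp2 and 0.69 for Prkaa2. Those of the other members were Tmem87b and Natd1 for Pnpla2 (0.86 and 0.82), Necab2 and Amn for Lipe (0.88 and 0.87), Acot7 and St6galnac3 for Mgll (0.84 and 0.83) and Wdr59 and Timm8a1 for Lipa (0.86 and 0.84). For these genes r lay between 0.72 for Timm8a1 and 0.89 for Necab2 without the 2 arrays farthest out in each member. Among the members themselves the highest r was 0.64 for Pnpla3 with Mgll and 0.62 for Pnpla2 with Mgll, and the lowest was -0.43 for Mgll with G0s2.

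**Figure D4:**
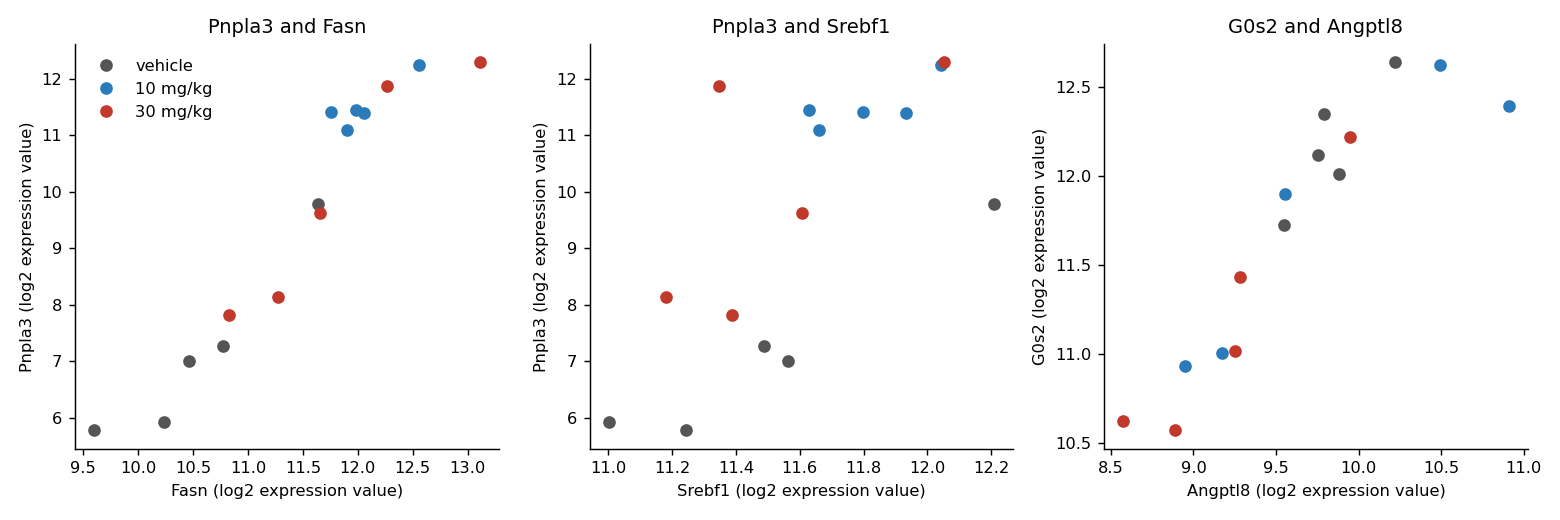
Log2 expression values of Pnpla3 against Fasn and against Srebf1, and of G0s2 against Angptl8, with each point 1 array and colours for the 3 groups. Vehicle sample 5 lies at 9.78 in Pnpla3 and 11.64 in Fasn, beside 30 mg/kg sample 1, and the treated samples with the highest Fasn also have the highest Pnpla3.

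Other genes of the same pathways were taken from lists, and limma called 0 of them at either dose. Of 18 measured other hydrolases of neutral lipid, 3 were higher and 2 lower at an unadjusted p under 0.05 at 10 mg/kg, and 3 higher and 3 lower at 30 mg/kg, with median log2 differences of -0.01 and -0.07. By this rule 4.49% of all 9540 genes were higher and 8.79% lower at 10 mg/kg. At 30 mg/kg 5.27% were higher and 10.8% lower. Ddhd1, a phospholipase, averaged 8.12 ± 1.10 in vehicle and 9.70 ± 0.30 at 10 mg/kg (SD, n = 5 each), 2.98-fold the vehicle level (limma adjusted p = 0.160). It was at 2.24-fold at 30 mg/kg (adjusted p = 0.219). Lipc, the hepatic lipase, was at 1.26-fold and 1.21-fold (limma adjusted p = 0.0740 and 0.127), and Abhd6, another monoacylglycerol hydrolase, at 1.39-fold and 1.13-fold (0.164 and 0.549). These 3 genes were named because treated values did not overlap vehicle, and all their samples at 10 mg/kg lay above all of vehicle. The same held for 93 of all 9540 genes at 10 mg/kg. The neutral cholesterol ester hydrolase Nceh1 and the esterase Aadac gave log2 differences of 0.00 and 0.07 at 10 mg/kg and -0.38 and -0.13 at 30 mg/kg, none of them called. Ces1d, a liver triglyceride hydrolase named here because its value stood out, had a log2 difference of -0.66 at 10 mg/kg and -0.20 at 30 mg/kg. Pnpla5 had no probe set of its own symbol.

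Of 14 measured droplet coat proteins and partners, 2 were higher and 2 lower at an unadjusted p under 0.05 at 10 mg/kg, and 2 higher and 1 lower at 30 mg/kg. Over all genes 4.49% were higher and 8.79% lower at 10 mg/kg, and 5.27% and 10.8% at 30 mg/kg. Plin3, a coat protein of nascent droplets, was at 1.87-fold and 1.66-fold the vehicle level (limma adjusted p = 0.119 and 0.163). Hsd17b13, a droplet protein linked to fatty liver in human genetics, was at 1.45-fold and 1.21-fold (0.105 and 0.292). All its 10 mg/kg samples lay above all of vehicle and all of 30 mg/kg, but narrowly. The lowest at 10 mg/kg was 12.10, against highest values of 12.09 in vehicle and 12.08 at 30 mg/kg. Plin2, the main coat protein of liver droplets, was at 1.28-fold and 1.06-fold (0.534 and 0.892). Cidea, Cidec and Hilpda, which promote droplet growth or inhibit lipolysis, had log2 differences of 0.19, -0.12 and 0.25 at 10 mg/kg and -0.18, -0.14 and 0.05 at 30 mg/kg. Plin5 did not pass the filter.

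Log2 differences of the 14 measured transcriptional regulators of the members ran from -0.42 to 0.61 at 10 mg/kg and from -0.34 to 0.55 at 30 mg/kg. Of these, 2 were higher and 1 lower at an unadjusted p under 0.05 at 10 mg/kg, and 0 higher and 2 lower at 30 mg/kg. By this rule 4.49% of all genes were higher and 8.79% lower at 10 mg/kg. At 30 mg/kg 5.27% were higher and 10.8% lower, shares that apply to the hormonal and lysosomal lists below too. Log2 differences at 10 and 30 mg/kg were 0.31 and 0.01 for Srebf1, 0.12 and 0.14 for Mlxipl, 0.00 and -0.05 for Foxo1, an activator of Pnpla2, and 0.04 and 0.07 for Tfeb, an activator of Lipa and other lysosomal genes. Of those named because their values stood out, Insig1, itself a target of SREBP, had 0.61 and 0.55, Ppargc1a, a coactivator induced in fasting, 0.48 and 0.35, and Pparg, a nuclear receptor of fat storage, -0.42 and -0.34. Of 11 measured genes of hormonal control, 1 was higher at 10 mg/kg and 2 at 30 mg/kg at an unadjusted p under 0.05. Akt2, a kinase of insulin signalling, was at 1.12-fold at 10 mg/kg (limma adjusted p = 0.247). Irs2, an insulin receptor substrate, was at 1.44-fold at 30 mg/kg (limma adjusted p = 0.266). Each was named because it did not overlap vehicle at that dose, which did not hold at the other dose. At 30 mg/kg Akt2 read 8.87 in sample 4 and 8.98 in sample 5, and the other samples lay above vehicle. At 10 mg/kg Irs2 read 6.47 in sample 2 and 6.60 in sample 4, below all of vehicle, and the other samples lay above vehicle. Of 11 measured lysosomal genes, 1 was lower and 0 higher at each dose at an unadjusted p under 0.05. In mean 6 of them were higher at 10 mg/kg and 7 at 30 mg/kg, beside 3986 and 3623 of all 9540 genes.

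**Figure D5:**
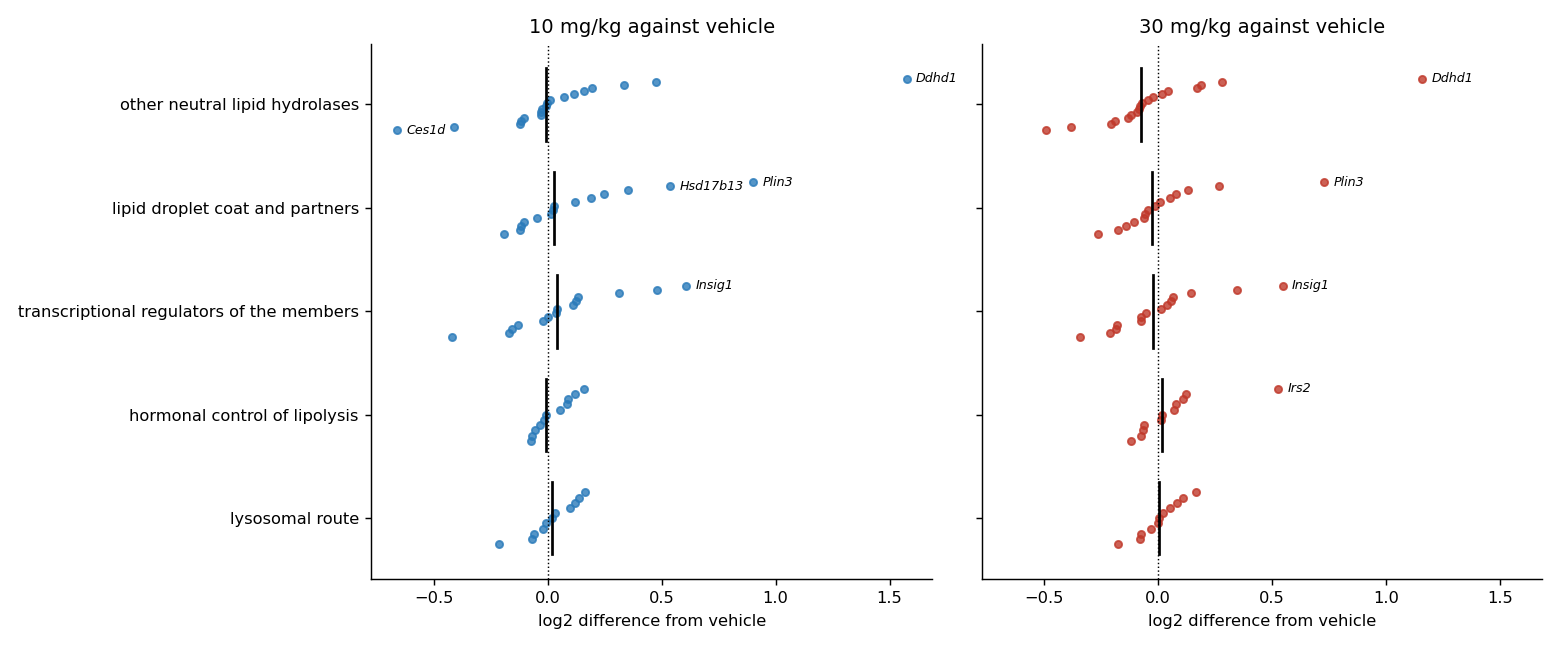
Log2 difference in mean from vehicle (horizontal axis) of the measured genes of 5 pathway lists at each dose. Points are genes, the vertical bar of each row is the list's median, and genes more than 0.5 from 0 are named. Ddhd1 (1.58 and 1.16) and Plin3 (0.90 and 0.73) lie farthest to the right at both doses.

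The tissue label held against its markers: all 9 hepatocyte markers with a probe set passed the filter, and their mean log2 value lay between 14.59 and 14.65 on every array. Adipocytes are rich in Lipe, Mgll and G0s2, and 7 of their markers had a probe set. The defining genes Adipoq, Lep, Fabp4 and Plin1 lay below the median of all values on every array. The other 3 passed the filter, among them Cidea, which read from 7.30 to 9.19. The log2 of the summed level of the 7 ran from 9.33 to 9.79 in vehicle, 9.28 to 9.98 at 10 mg/kg and 9.23 to 9.60 at 30 mg/kg. All 7 endothelial markers were lower in mean at both doses, and Pecam1 was 1.23-fold higher in vehicle at each (limma adjusted p = 0.159 and 0.156). Of 9 stellate cell and matrix markers, 9 were lower in mean at 10 mg/kg and 6 at 30 mg/kg, and their part in the Pnpla3 values was not tested. Beside these counts, 5554 of all 9540 genes were lower in mean at 10 mg/kg and 5917 at 30 mg/kg.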

How the data were processed

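Each of the 15 liver samples was read on 1 Affymetrix rat array. The deposited log2 values are 1 per probe set and array. As tools, per the submitters' processing notes, the authors used RMA, GCRMA 2.12.1 and limma 2.14.7, with no role stated for any of them, so whether a value comes from RMA or GCRMA is unknown here. Array medians lay between 6.08 and 6.12. Precision is limited by the number of arrays.

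Probe sets with 1 symbol were kept when the fifth highest of 15 values exceeded the median of all values (6.10). The brightest probe set of each gene by mean over all arrays stood for it, which left 9540 genes. The limma package (3.58.1, under R 4.3.3) estimated each group's mean from that group's own arrays, without a block. The variance of each gene drew on all 15 arrays. The interval and p-value of a comparison between groups therefore also carry the spread of any group it leaves out. Genes were called at a Benjamini-Hochberg adjusted p under 0.05, taken over the 9540. Fold changes are powers of 2 of log2 differences. Because samples of a group may be technical repeats, a p-value reflects only how these samples vary.

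Genes named were the members, called list genes, 13 genes fixed by name, up to 3 genes per list whose treated values did not overlap vehicle, and the genes closest to each member. The members and the 15 other gene lists were chosen with earlier results of these data known. The procedure was tested on simulated data. Lists of feeding, time of day, cholangiocytes, leukocytes and red cells are given in the closing section. Alternatives were the filter, the probe set rule, normalisation, variance options, the arrays fitted, a replicate block and leaving out each sample.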

Additional observations from a re-analysis of the deposited data

Results flagged for a closer look

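In the dimmer Lipe probe set, 1387132_at, 10 mg/kg sample 1 read 6.72, below a nearest neighbour of 6.87, a gap that was 0.781 of the group's range. In the same probe set 30 mg/kg sample 5 read 7.09, above a nearest neighbour of 6.91, with a gap of 0.808 of the range. Both gaps exceeded Dixon's 95% critical value for 5 samples. These were 2 of 42 groups examined over the 14 probe sets, and chance alone flags about 1 group in 20. Neither sample passed that value in the brighter Lipe probe set.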

How the results depend on the processing

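Over 9 other settings and 15 fits with 1 sample left out, 644 of 665 values of the 7 genes kept their direction and their side of the threshold, 5 passed it newly, all Pnpla3, and 16 changed sign, none of them called. Pnpla3 at 10 mg/kg also passed when only the vehicle and 10 mg/kg arrays were fitted (log2 difference 4.37, limma adjusted p = 0.0344), which made 1 member called in place of 0; over its 9 settings the adjusted p ran up to 0.149. With 1 sample left out, members called ranged from 0 to 1 at 10 mg/kg and for both doses, and the log2 difference of Pnpla3 from 4.02 to 5.02 and from 3.24 to 4.24. Sign changes came with quantile normalisation for Abhd5 between doses (0.014), with the mean of probe sets for Lipe at 10 mg/kg (-0.016) and with centring on the median for Pnpla2 between doses (-0.010). With 1 sample left out they lay between -0.126 and 0.069 for Abhd5 between doses, -0.056 and 0.036 for Lipa at 10 mg/kg, and -0.044 and 0.055 for Pnpla2 between doses. The cause was not tested. Correlations of deviations between same-numbered samples ran from -0.07 to 0.19, and 3 of 15 pairs were over 0.1. The labels do not say what the numbers mean, and whether they mark pairs was not tested. With the replicate block, Pnpla3 at 10 mg/kg had a log2 difference of 4.37 (limma adjusted p = 0.149) and 0 members were called in each comparison. The block left 0 of all genes called at 10 mg/kg in place of 10, and 3 samples correlated best with their own number. Values near or below 6.10 limit how well the Pnpla3 difference is sized.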

Other observations

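Genes of feeding and fasting, which bear on several members, were not called at either dose (limma, 0 of 6 measured). At an unadjusted p under 0.05 there were 2 higher at 10 mg/kg and 1 at 30 mg/kg. By this rule 4.49% and 5.27% of all genes were higher. Fgf21, a liver hormone raised in fasting, had log2 differences of 0.91 at 10 mg/kg and 0.18 at 30 mg/kg (limma adjusted p = 0.333 and 0.859). Pdk4, a kinase that spares glucose in fasting, had 0.62 and 0.59 (limma adjusted p = 0.338 and 0.297), and Igfbp1, which insulin represses, -0.21 and 0.71. The remaining 3 had 0.20 and -0.04 (Cpt1a, of fatty acid oxidation), 0.09 and -0.03 (Angptl4, an inhibitor of lipoprotein lipase) and -0.12 and -0.14 (Pck1, of gluconeogenesis). All 6 lay outside the rule for naming genes and were named after their values were seen. Among 9 measured clock genes limma called 0 at either dose, and 0 reached p under 0.05 without adjustment. Of 3 measured red cell genes, 3 were lower in mean at 10 mg/kg and 2 at 30 mg/kg, beside 5554 and 5917 of all 9540 genes. Only 1 cholangiocyte marker and 2 leukocyte markers were measured, and 0 of them were called, with 0 at an unadjusted p under 0.05 (limma).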
